A study of Homo sapiens with 10 samples.

Results

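The HOX genes encode homeodomain transcription factors and lie in 4 clusters, HOXA on chromosome 7, HOXB on chromosome 17, HOXC on chromosome 12 and HOXD on chromosome 2 (GRCh38). Genes that occupy the same place in different clusters descend from one ancestral gene and carry the same paralogue number. During development, genes at the low-numbered end of a cluster are switched on earlier and closer to the head than genes at the high-numbered end. Fibroblasts grown in culture keep much of the HOX pattern of the body site they came from, which makes these genes a positional code. In lung mesenchyme, HOXA5 and its neighbours are the best known members, and HOX proteins bind DNA together with the PBX and MEIS homeodomain cofactors.

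A list of 38 HOX genes was looked up by Ensembl identifier in a table of 14054 genes, and 17 of the 38 had a row. The table came from MRC5, a human fetal lung fibroblast line. A549, a line from a lung adenocarcinoma that resembles alveolar epithelium, supplied the culture medium for both groups. In 5 libraries, numbered 1, 3, 5, 7 and 9, the A549 cells had not been stretched (static medium), and in the other 5, numbered 2, 4, 6, 8 and 10, they had been (stretch medium). The labels give the exposure as 24 hours in the sample descriptions and as 6 hours in the series design, so the time is not settled, and no group without A549 medium was analysed here. The series asks what factors secreted by stretched epithelial cells do to fibroblasts. Whether the 5 libraries of a group are separate cultures is not stated in the labels, and the p-values therefore measure only a spread between libraries that may be technical.

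Libraries held 4231653 to 8455073 counts, and 3 counts corresponded to 0.353 to 0.678 CPM (the count divided by the TMM-scaled size of its library). The cell label was checked against marker genes: 12 of 12 fibroblast markers were in the table, with summed levels of 16467 to 18324 CPM with static and 14599 to 19089 CPM with stretch medium. Of these, the matrix genes COL1A1 (2744 ± 245 and 3206 ± 332 CPM) and FN1 (1726 ± 300.4 and 2126 ± 266 CPM) had unadjusted p of 0.0357 and 0.0279, with adjusted p of 0.273 and 0.252 in edgeR. The intermediate filament gene VIM was at 1577 CPM in stretch 2 and at 4049 to 5065 CPM in the other 9 libraries. Of 12 markers of A549 and lung epithelium, 7 were in the table, with summed levels of 36.1 to 48.0 and 41.8 to 51.9 CPM. The epithelial cadherin gene CDH1 was at most at 0.521 CPM, while the keratin gene KRT18, also on that list, was at 11.1 ± 2.28 CPM with static medium and 14.6 ± 2.34 CPM with stretch medium (unadjusted p = 0.0385, adjusted p = 0.276 in edgeR). Endothelial markers summed to 53.6 to 65.8 and 48.3 to 68.1 CPM, and the 2 blood markers with a row to 193 to 207 and 182 to 231 CPM. The part of such cells in the HOX levels was not tested, and in bulk RNA fewer cells of a type and less RNA per cell cannot be told apart.

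The feature that defines the family is the homeobox, the 180 coding bases for the DNA-binding domain, which was found in the principal transcript of all 38 listed genes (GENCODE 29, GRCh38). It is shown for HOXB6, the most abundant member in the table, and for HOXB7, since no other pair of principal transcripts among the 17 genes had a longer stretch in common. Sequences run 5′ to 3′ on the coding strand. Capitals mark the longest run at matching positions in both genes, 51 bases from base 58 to base 108 of the box.
HOXB6: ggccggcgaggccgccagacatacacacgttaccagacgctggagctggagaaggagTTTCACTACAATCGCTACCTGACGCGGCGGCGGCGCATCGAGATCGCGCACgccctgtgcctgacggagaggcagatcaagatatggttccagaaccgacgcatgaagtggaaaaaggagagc
HOXB7: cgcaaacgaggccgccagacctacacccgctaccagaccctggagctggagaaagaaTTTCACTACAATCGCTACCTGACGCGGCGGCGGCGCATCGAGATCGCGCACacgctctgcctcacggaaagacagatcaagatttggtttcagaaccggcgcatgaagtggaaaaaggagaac
HOXB6 and HOXB7 had 160 of the 180 bases in common (88.9%). The common run ends before the codons of the conserved core of the recognition helix (bases 142 to 159), by which the box was placed. Over the 17 genes in the table, the 9 pairs with the same paralogue number had a median homeobox identity of 83.9% (76.7% to 90.6%). The 45 pairs within a cluster had 69.4%, with a range of 55.0% to 91.1%. Outside the homeobox the principal transcripts of these genes held no longer common stretch than the 51 bases of HOXB6 and HOXB7. Which targets the library kit amplifies for each gene is not given in the sources used here, so whether reads fell in this stretch was not tested.

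Which listed genes had a row differed by cluster and paralogue number. Of the HOXA genes listed, 7 of 10 were in the table (HOXA2 to HOXA7 and HOXA10). Of the HOXB genes, 7 of 10 were in it (HOXB2 to HOXB8), and of the HOXC genes 3 of 9 (HOXC6, HOXC8 and HOXC9). Of the HOXD genes, 0 of 9 had a row. By paralogue number, all 13 listed HOXA and HOXB genes of groups 2 to 8 had a row, against 2 of 16 genes of groups 9 to 13 in all clusters, and 0 of 9 of groups 11 to 13. The 21 genes without a row were HOXA9, HOXA11, HOXA13, HOXB1, HOXB9, HOXB13, HOXC4, HOXC5, HOXC10, HOXC11, HOXC12, HOXC13 and the 9 HOXD genes. Since each gene in the table was above 0 in at least 5 libraries, a gene seen in fewer would have no row. Whether the kit amplifies a target for each of the 21 genes is not given in the sources used here. Genes of the other lists lacked a row too, among them PBX2, RING1, WDR5 and RXRB. A missing row therefore does not show that a gene was silent, and why a row is missing was not tested. For these 21 genes no level, and no difference between media, was analysed here.

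**Figure D1:**
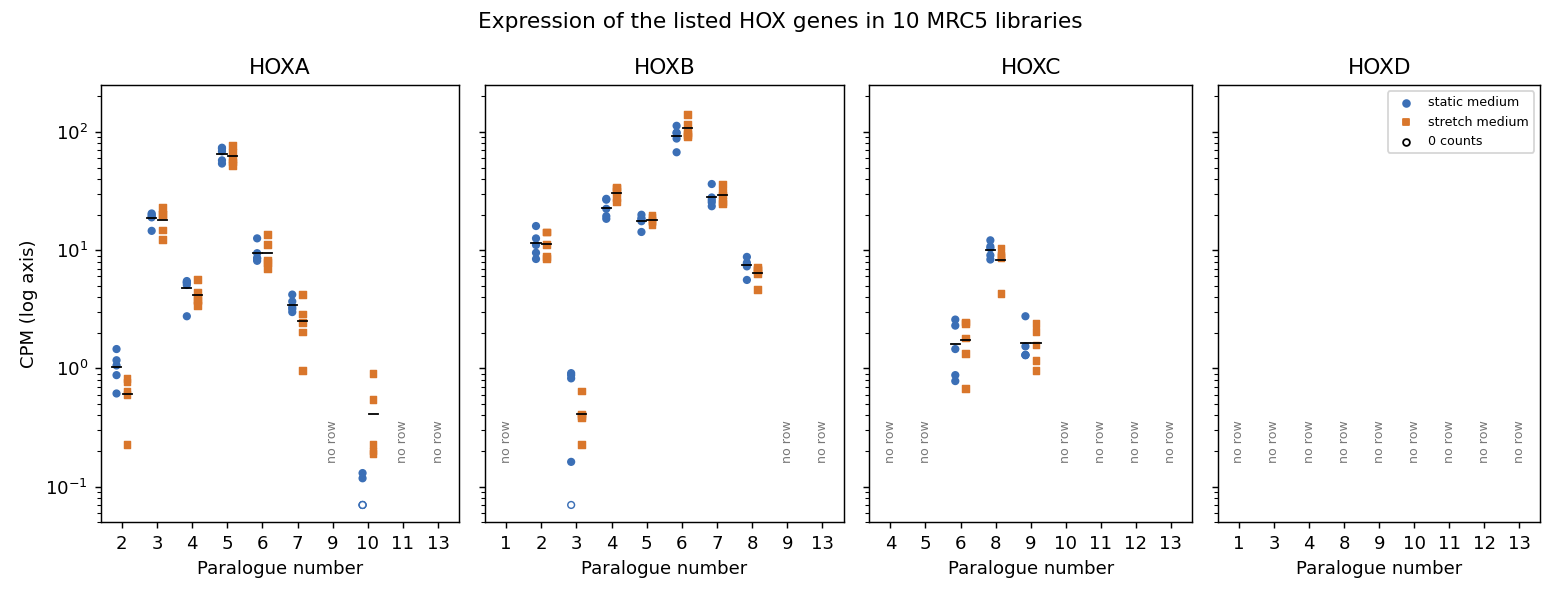
CPM on a log axis of each listed HOX gene by cluster and paralogue number, with 1 point per library (circles static, squares stretch medium, open symbols 0 counts, drawn at the bottom) and a line at the mean where no library was at 0. Rows in the table are confined to HOXA, HOXB and 3 HOXC genes, and the highest points are HOXB6 and HOXA5.

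Among the genes in the table, 14 of 17 had a mean of at least 1 CPM, and 14 had at least 3 counts in each library. Levels differed widely between genes, from 100.8 ± 19.3 CPM for HOXB6 to 0.232 ± 0.286 CPM for HOXA10 (SD, n = 10). HOXB6 lay at the 84.9th percentile of mean CPM over the genes in the table and HOXA5 at the 77.6th. HOXA2, HOXB3 and HOXA10 lay at the 16.6th, 12.7th and 6.46th. To set genes side by side, CPM were also divided by the length of the principal transcript. HOXB6 and HOXA5 were again the highest, at 51.4 ± 9.83 and 38.4 ± 5.37 CPM per kb, and HOXB6 was above HOXA5 in 10 of 10 libraries on both scales. HOXB7 came next per kb, at 20.9 ± 3.31 CPM per kb, with a range that did not overlap those of HOXA5 and of HOXA6, the next gene on that scale. In CPM, HOXB7 and HOXB4 did not differ beyond their spread over both media, at 28.7 ± 4.54 and 26.7 ± 5.50 CPM. HOXB7 was the higher in 5 of 10 libraries, static 1, 5, 7 and 9 and stretch 6. In stretch 4 and 10 these genes were nearly level, with HOXB7 at 24.8 and 31.1 CPM and HOXB4 at 25.5 and 31.7 CPM. Whether their order depends on the medium was not tested. Further down, the ranges of neighbours in the order overlapped on both scales, although HOXB5 was above HOXB2 in CPM in 10 of 10 libraries, as was HOXA2 above HOXB3 per kb. HOXA6, HOXB5, HOXB2 and HOXB4 were at 9.60, 8.79, 7.32 and 7.11 CPM per kb, and HOXB4 had rank 4 in CPM and rank 7 per kb. Libraries made by amplifying short targets need not yield counts in proportion to transcript length, so an order that differs between the scales is uncertain. Neither scale corrects for how well the target of each gene is amplified. An order of different genes is therefore one of counts, also where both scales agree, and need not be that of their RNA.

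**Figure D2:**
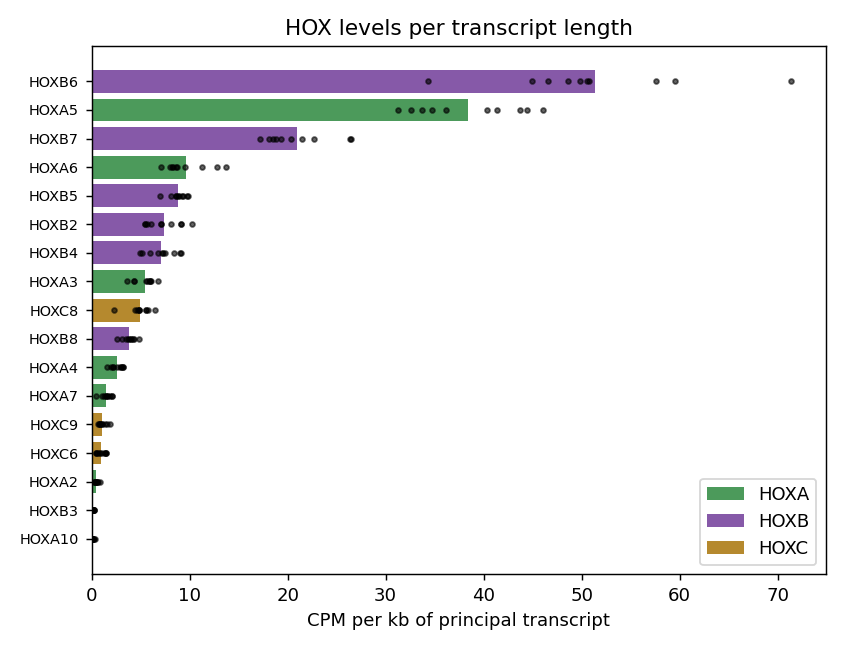
Mean level of each HOX gene in the table as CPM per kb of principal transcript (bars, coloured by cluster), with the 10 libraries as points. HOXB6, HOXA5 and HOXB7 stand above the other 14 genes.

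By cluster, HOXB genes held 63.0% ± 2.84 of the summed CPM of the 17 members, HOXA genes 32.8% ± 2.61 and HOXC genes 4.14% ± 0.907 (SD, n = 10). Per kb of principal transcript these shares were 60.4%, 35.3% and 4.25%. By paralogue number, groups 4 to 7 held 83.8% ± 2.35 of the summed CPM and 85.8% ± 2.09 per kb. Group 6 was the largest, at 111.9 ± 20.6 CPM, followed by group 5 at 81.7 ± 9.10 CPM. Sums fell away on both sides, to 12.3 ± 2.55 CPM for group 2, 16.1 ± 2.69 CPM for group 8, 1.64 ± 0.585 CPM for group 9 and 0.232 CPM for group 10. The cluster that led differed between groups. In group 5, HOXA5 was 3.58 ± 0.671 times HOXB5 in CPM and above it in every library, with a lowest ratio of 2.90. In groups 6 and 7 the HOXB gene led, with HOXA6 at 0.0958 ± 0.0216 times HOXB6 and HOXA7 at 0.107 ± 0.0347 times HOXB7. HOXA4 was at 0.177 ± 0.0637 times HOXB4 in CPM, and at 0.381 times per kb. In group 8, HOXC8 was above HOXB8 in 9 of 10 libraries. The ratio of HOXB8 to HOXC8 was 0.798 ± 0.294 in CPM, with a lowest of 0.540 and a highest of 1.58 in stretch 2, the exception. All these shares, sums and ratios set different genes side by side, and amplification of each target is not corrected for in them.

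HOXA5 is the HOX gene with the best known part in the shaping of the airways and lung. It lies at chromosome 7, 27141052 to 27143668, on the minus strand. It was at 72.4, 57.6, 68.6, 54.1 and 73.6 CPM in static 1, 3, 5, 7 and 9, and at 66.9, 51.9, 76.4, 55.9 and 60.0 CPM in stretch 2, 4, 6, 8 and 10. Both groups covered nearly the same range. HOXA3, which patterns the pharyngeal arches and their glands (27106184 to 27152581), was at 19.96, 18.95, 14.6, 20.5 and 19.3 CPM with static and at 20.1, 14.8, 20.2, 12.3 and 23.1 CPM with stretch medium. Its stretch libraries lay on both sides of the static range. HOXA6 (27145396 to 27150603) was at 9.43, 12.6, 8.13, 8.47 and 8.59 CPM with static and at 13.6, 7.88, 11.1, 6.97 and 8.22 CPM with stretch medium, again with stretch libraries above and below. The log2 fold changes (stretch minus static) were -0.066 ± 0.132 for HOXA5, -0.051 ± 0.175 for HOXA3 and 0.00024 ± 0.227 for HOXA6 (± is the standard error).

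The other HOXA genes were low. HOXA4 was at 4.79 ± 1.15 CPM with static medium and 4.20 ± 0.882 CPM with stretch medium (SD, n = 5 each). HOXA7 was at 3.47 ± 0.485 and 2.51 ± 1.19 CPM. Of its stretch libraries 4 lay below all static ones, and stretch 10, at 4.21 CPM, lay level with the highest, static 9. The interval of its log2 fold change of -0.50, from -1.14 to 0.154, was the widest of the HOXA genes tested. The value was -0.26 without stretch 6 and -0.75 without stretch 10. HOXA2, which patterns the second pharyngeal arch, had 35 counts over the static and 19 over the stretch libraries, a ratio of 0.609 with an exact 95% interval of 0.329 to 1.10 that covers counting error only.

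HOXA10, a gene of the hindlimb, uterus and other posterior structures, was the one member of group 10 or above with a row. It had 0, 1, 0, 1 and 0 counts in static 1, 3, 5, 7 and 9 and 1, 1, 4, 7 and 1 counts in stretch 2, 4, 6, 8 and 10. In 8 of 10 libraries it was under 3 counts, so it did not enter the test. In CPM the groups did not overlap, as was so in either direction for 3.1% of all genes in the table. With 1 count each in static 3 and 7 and in stretch 2, 4 and 10, these libraries differ in CPM by their totals alone, and nothing is read from the separation. Most of the stretch counts came from stretch 6 and 8. Summed over libraries there were 2 counts with static and 14 with stretch medium, a ratio of 7.86 with an exact 95% interval of 1.80 to 71.2 for counting error alone. With all genes fitted, edgeR's quasi-likelihood test gave it an unadjusted p of 0.00638 and an adjusted p of 0.185. HOXA10 was above 0 in static 3 and 7 and in all 5 stretch libraries. Each gene in the table was above 0 in at least 5 libraries, so HOXA10 had a row only through its stretch counts. No difference between the media is therefore read from the ratio or the p of HOXA10. Its neighbour HOXA9 had no row.

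HOXB6 lies at chromosome 17, 48595751 to 48604992, on the minus strand and is a gene of the trunk. It was at 88.0, 97.7, 99.0, 67.4 and 112.8 CPM in static 1, 3, 5, 7 and 9 and at 116.8, 99.5, 139.8, 95.3 and 91.3 CPM in stretch 2, 4, 6, 8 and 10. Of the stretch libraries 2 were above all static ones, and the other 3 lay inside the static range. HOXB7, which has been linked to cell proliferation (48607227 to 48633572), was at 26.5, 23.5, 27.9, 25.4 and 36.3 CPM with static and at 29.4, 24.8, 36.1, 25.8 and 31.1 CPM with stretch medium, with all stretch libraries inside the static range. Their log2 fold changes were 0.22 ± 0.145 and 0.078 ± 0.149, and that of HOXB6 was 0.117 without stretch 6 and 0.128 without static 7.

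HOXB4, best known for its effect on the self-renewal of blood stem cells (48575513 to 48580111), had the smallest p of the 13 members that passed the filter on low counts. It was at 18.4, 27.2, 22.4, 19.4 and 26.7 CPM in static 1, 3, 5, 7 and 9. In stretch 2, 4, 6, 8 and 10 it was at 33.7, 25.5, 34.2, 28.0 and 31.7 CPM. Of the stretch libraries 4 were above all static ones, while stretch 4 lay below static 3 and 9. The means were 22.8 ± 4.05 and 30.6 ± 3.73 CPM. The log2 fold change of HOXB4 was 0.42 ± 0.147, and its 95% interval 0.108 to 0.728. The unadjusted p was 0.0113. Adjusted over all genes it was 0.180 in edgeR's quasi-likelihood test and 0.101 in DESeq2, so HOXB4 did not pass the threshold of 0.05.

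**Figure D3:**
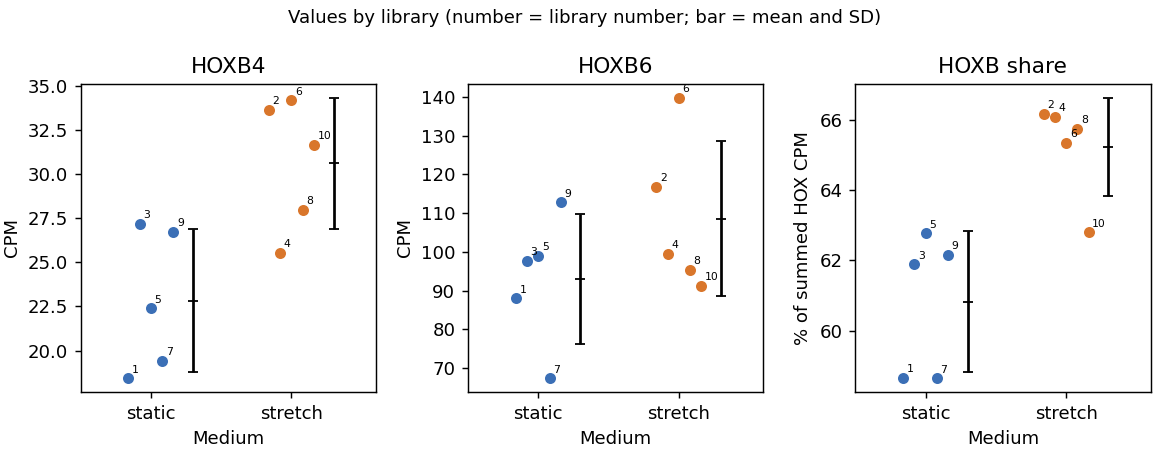
HOXB4 and HOXB6 in CPM and the share of the HOXB genes in the summed CPM of the 17 HOX genes in the table, by medium, with 1 point per library, its number beside it, and a bar for the mean and SD (n = 5 each). For HOXB4, 4 of 5 stretch libraries are above all static ones, and the axes do not start at 0.

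The remaining HOXB genes showed small differences. HOXB5, a gene expressed in embryonic lung mesenchyme, was at 17.7 ± 2.13 CPM with static medium and 18.1 ± 1.32 CPM with stretch medium. Its interval, from -0.256 to 0.316, leaves room for a difference of that size in either direction. HOXB2, which patterns the hindbrain, was at 11.5 ± 2.96 and 11.4 ± 2.81 CPM. HOXB8 was at 7.42 ± 1.16 and 6.38 ± 1.01 CPM, and 4 of its 5 static libraries were above all stretch ones. HOXB3 had 19 and 13 counts over the 5 libraries of each group, under 3 counts in 5 of 10 libraries. In the annotation HOXB3 shares 433 exonic bases with HOXB6 and 159 with HOXB4, both on its strand and far more abundant, so its low count is uncertain. The share of the HOXB genes in the summed CPM was 58.7%, 61.9%, 62.8%, 58.6% and 62.2% in static 1, 3, 5, 7 and 9 and 66.2%, 66.1%, 65.3%, 65.7% and 62.8% in stretch 2, 4, 6, 8 and 10. Every stretch library was above every static one, the nearest being stretch 10 at 62.803% and static 5 at 62.773%. Per kb these libraries were at 60.813% and 60.135%, again without overlap of the groups. The share depends on the HOXA and HOXC levels as well. Summed HOXB levels overlapped, at 145.8 to 206.3 CPM with static and 183.45 to 242.9 CPM with stretch medium. In stretch 4, 8 and 10 the HOXB sums, at 183.45, 184.7 and 192.35 CPM, lay inside the static range. The HOXA sums of stretch 4 and 8, at 82.79 and 82.81 CPM, were below those of all static libraries (92.4 to 112.5 CPM). This share is given as a description, with no test.

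HOXC8, a gene of the thoracic trunk and the highest of its cluster in the table (chromosome 12, 54009106 to 54012362), was at 10.75, 12.1, 9.05, 8.34 and 10.4 CPM in static 1, 3, 5, 7 and 9 and at 4.29, 9.03, 8.65, 10.4 and 9.03 CPM in stretch 2, 4, 6, 8 and 10. Stretch 2 lay below all other libraries, and the other 4 stretch libraries lay inside the static range. HOXC6 had 4, 22, 15, 6 and 9 counts with static and 3, 7, 18, 14 and 12 with stretch medium. HOXC9 had 7, 11, 18, 10 and 8 and 7, 5, 15, 9 and 12 counts. HOXC6 shares 484 exonic bases with HOXC4, which had no row, and 73 with HOXC9, so its counts may include reads of either. The log2 fold changes were -0.27 ± 0.205 for HOXC8 and 0.12 ± 0.390 for HOXC6, and HOXC9 did not enter the test. Without stretch 2 the value of HOXC8 was -0.12. Over the 17 genes, 5 share exonic bases with another HOX gene and 14 lie over a noncoding gene of the clusters, and the use of strand in counting is not given in the sources used here.

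Across the whole comparison, HOX genes did not pass the test. Of the 17 in the table, 13 passed the filter on low counts, and these are the better expressed ones. In edgeR's quasi-likelihood test 0 of the 13 had an adjusted p under 0.05, as had 0% of all 10968 genes tested. At an unadjusted p under 0.05 there was 1 member, HOXB4, or 7.69% of 13, against a background of 16.4% of all genes tested (8.08% higher with stretch medium). None of the 13 had groups without overlap, against 3.72% of all genes. DESeq2 called 0 of the 13, against 2.51% of all genes, but gave no adjusted p for HOXA7 and HOXC6. Of the 13, 6 were above 0, as were 50.1% of all genes tested, and 7 below, with a median of -0.019 beside 0.00032 over all genes tested. By cluster, 1 of 5 HOXA genes, 4 of 6 HOXB genes and 1 of 2 HOXC genes were above 0. The intervals show what size of change the data leave room for. Among the 10 genes with means above 5 CPM, the bounds ran from -0.704 (HOXC8) to 0.728 (HOXB4), and the interval of the most abundant, HOXB6, from -0.082 to 0.531.

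**Figure D4:**
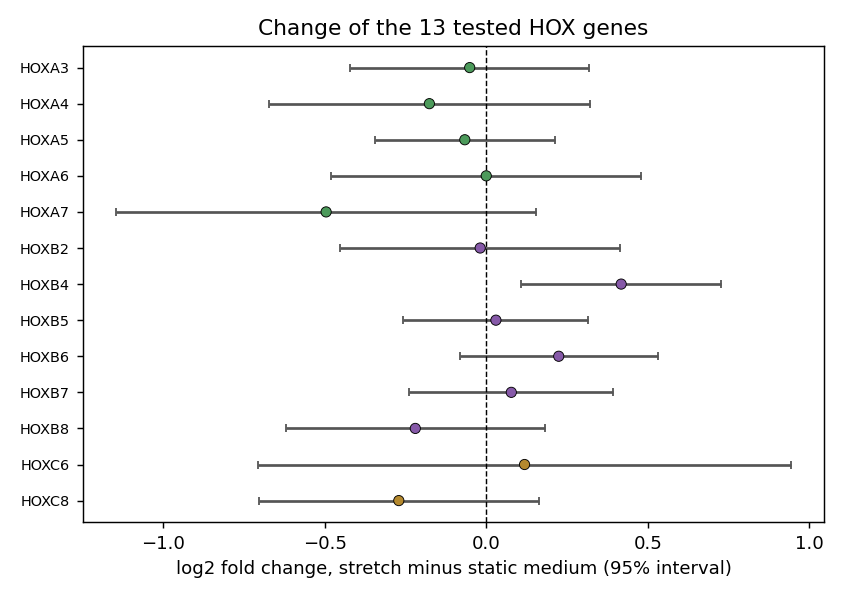
Log2 fold change (stretch minus static medium) of the 13 HOX genes tested, with 95% intervals from edgeR, coloured by cluster as in the plot of levels per transcript length. The interval of HOXB4 lies above 0 and the other 12 span it.

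How much a HOX level varied between libraries depended on the gene. The coefficient of variation (CV, the SD divided by the mean) over 10 libraries was 9.39% for HOXB5, where counting alone would give 9.64%, and 16.8% for HOXB8 against 15.5%. For HOXB6 it was 19.1% against 4.07%, for HOXA5 13.97% against 5.12% and for HOXB4 20.6% against 7.90%. HOXB6, HOXA5 and HOXB4 thus varied more than counting alone would give. For HOXA2, HOXB3 and HOXC9, at 41.8%, 65.5% and 35.8%, counting would give 45.0%, 58.7% and 31.9%. Both media are pooled in these CVs, so that of HOXB4 includes the difference between its group means (22.8 and 30.6 CPM). What sets the spread was not tested. The libraries are of amplified reads with no molecular identifiers mentioned, so counting error is a lower limit. The CV beyond counting fitted by edgeR, which it terms biological, had a median of 18.5% over the 13 members (13.7% to 29.7%). Over all genes tested the median was 16.7%. The lowest of the 13 was HOXB5. In this fit the value of a gene is drawn toward those of other genes, and the spread between these libraries may be technical.

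**Figure D5:**
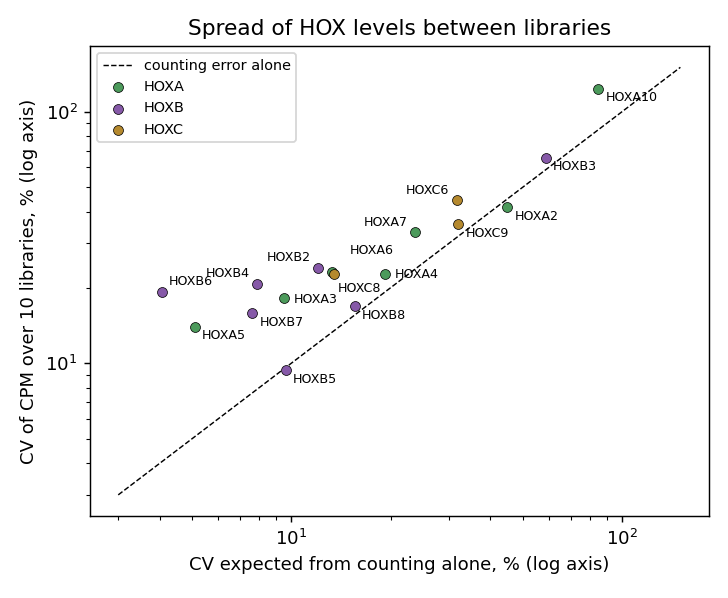
CV of CPM over the 10 libraries (both media together) against the CV that counting alone would give, both in percent on log axes, for the 17 HOX genes in the table, coloured by cluster. HOXB5 lies on the dashed line of equal values, and HOXB6 lies furthest above it.

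The TALE cofactors, homeodomain proteins that bind DNA beside HOX proteins, were well represented. Of 9 listed, 8 were in the table and 7 were tested. MEIS1 was the highest, at 79.9 ± 7.18 CPM with static medium and 77.7 ± 8.02 CPM with stretch medium, followed by MEIS3 at 41.0 ± 7.87 and 37.9 ± 3.97 CPM. PBX3 was at 26.3 ± 5.15 and 24.3 ± 2.47 CPM. Of the 7, 0 passed the adjusted and 0 the unadjusted threshold, with 1 above 0, 6 below and a median log2 fold change of -0.11. Over all genes tested, 16.4% had an unadjusted p under 0.05 in edgeR and 50.1% were above 0.

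Regulators that set HOX expression were described by lists. Polycomb proteins keep HOX genes silent. Of 13 Polycomb genes tested, 0 passed the adjusted threshold, 8 were above 0 and the median was 0.12. At an unadjusted p under 0.05 in edgeR there were 2, SUZ12 and CBX6, against 16.4% of all genes tested. Of all genes tested, 50.1% were above 0. SUZ12, a core subunit of the complex that methylates histone H3 lysine 27, was at 51.7 ± 9.33 CPM with static medium and 67.0 ± 15.7 CPM with stretch medium (unadjusted p = 0.0375, adjusted p = 0.276 in edgeR). CBX6, a reader of that mark, was at 33.5 ± 8.37 and 43.2 ± 6.11 CPM (adjusted p = 0.276 in edgeR). The most abundant were PHC3 (89.1 ± 9.17 and 96.9 ± 10.8 CPM) and SUZ12.

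Trithorax proteins keep HOX genes active. Of 10 Trithorax and H3K27 demethylase genes tested, 0 passed the adjusted threshold, 7 were below 0 and the median was -0.16. At an unadjusted p under 0.05 in edgeR there were 2, KMT2A and ASH2L, against 16.4% of all genes tested. Above 0 were 3 of the 10, against 50.1% of all genes tested. KMT2A, the methyltransferase MLL that maintains HOX expression, was at 90.1 ± 6.76 CPM with static medium and 70.1 ± 15.9 CPM with stretch medium, and its log2 fold change was -0.36 ± 0.134 (unadjusted p = 0.0156, adjusted p = 0.207 in edgeR). ASH2L, a subunit shared by such complexes, was at 27.7 ± 9.41 and 20.03 ± 3.26 CPM (adjusted p = 0.250 in edgeR). The highest of the list was DPY30, another shared subunit, at 117.9 ± 20.6 and 98.8 ± 18.6 CPM.

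Retinoic acid switches on genes at the low-numbered end of the clusters. Of 18 genes of retinoid synthesis, binding and response, 13 were in the table and 8 tested. Of the 8, 7 were above 0, against 50.1% of all genes tested, and 0 passed the adjusted threshold. The median log2 fold change was 0.17. At an unadjusted p under 0.05 in edgeR there was 1, NRIP1, against 16.4% of all genes tested. NRIP1, a nuclear receptor corepressor induced by retinoic acid, was at 23.1 ± 4.61 CPM with static medium and 33.0 ± 7.24 CPM with stretch medium (unadjusted p = 0.00839, adjusted p = 0.166 in edgeR). The most abundant were CRABP2, a retinoic acid binding protein (95.4 ± 18.7 and 98.2 ± 24.3 CPM), and the receptor RARG (44.2 ± 2.51 and 47.3 ± 5.04 CPM).

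Of 24 noncoding genes of the HOX clusters looked up, antisense RNAs and microRNAs, 0 were in the table, where 92.5% of identifiers were protein-coding genes in GENCODE 29. Genes that flank the clusters were also measured. MTX2 and LNPK, which flank the HOXD cluster, were at 54.6 ± 7.40 and 69.5 ± 8.44 CPM with static and at 49.0 ± 5.92 and 57.9 ± 6.98 CPM with stretch medium, although 0 of the 9 HOXD genes had a row. Of the 8 flanking genes tested, 0 passed the adjusted threshold, 2 were above 0 and the median was -0.13. Over all genes tested, 50.1% were above 0 and 16.4% had an unadjusted p under 0.05 in edgeR, as had 1 of the 8. LNPK had an unadjusted p of 0.0431 and an adjusted p of 0.287 in edgeR. The highest were CBX5 (254.6 ± 15.05 and 238.3 ± 27.2 CPM) and HNRNPA1 (124.3 ± 17.8 and 144.5 ± 37.0 CPM).

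Of 12 other positional factors listed, 7 were in the table. CDX1, CDX2 and CDX4, which act upstream of HOX genes in the posterior embryo, GBX2 and NKX2-1 had no row. All 7 were tested, 0 passed the adjusted threshold, 3 were above 0 and the median was -0.009. At an unadjusted p under 0.05 in edgeR there was 1, PITX1, against 16.4% of all genes tested, of which 50.1% were above 0. The T-box genes TBX2 (289.5 ± 30.8 and 322.3 ± 45.6 CPM) and TBX3 (187.6 ± 47.4 and 195.0 ± 47.5 CPM) were the highest. PITX1, a hindlimb factor, was at 7.43 ± 1.22 and 5.46 ± 0.902 CPM (unadjusted p = 0.0380, adjusted p = 0.276 in edgeR). The lung mesenchyme factors TBX5 and FOXF1 were at 45.5 ± 9.87 and 141.4 ± 10.2 CPM with static and at 45.2 ± 8.95 and 119.3 ± 28.9 CPM with stretch medium.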

How the data were processed

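Total RNA of 10 MRC5 libraries was amplified at short targets (Ion AmpliSeq Transcriptome kit, per the labels' protocols). The authors deposited unscaled whole-number counts, 1 row for each Ensembl gene. The submitters' processing notes name fastp 0.20.1, Salmon 1.9 and hg38/GRCh38; what each did, the gene models, strand use and rounding are not stated there. Columns were matched to samples by the title number. Symbols were found for 13831 of 14054 identifiers. Gene bounds, principal transcript lengths and homeoboxes are from GENCODE 29.

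The test was run in edgeR 4.0.16 under R 4.3.3, after checks on simulated data. Low counts were removed by filterByExpr (minimum count 10, minimum total 15), which does not ask for 10 counts in every library. TMM scaling, the quasi-likelihood test and Benjamini-Hochberg adjustment over 10968 genes followed, with a threshold of 0.05. CPM use TMM library sizes. DESeq2 1.42.0 and limma-voom (limma 3.58.1) were alternatives, with other scalings, filters and each library left out. HOX members with an unadjusted p under 0.05, the 3 highest per cluster and those without overlap were given by library; of the other lists, genes with an unadjusted p under 0.05 and the 2 highest were given by group. Chi-square divided by its degrees of freedom was 6.05 to 24.5 for pairs of libraries of a group, so each was counted as its own library. The members and lists were chosen with earlier results of these data known. HOXA2, HOXA4, HOXA7, HOXB2, HOXB3, HOXB5, HOXB8, PBX3, TBX5, FOXF1, MTX2, CDH1 and VIM were named in addition to that rule. No protein sequence table was used.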

Additional observations from a re-analysis of the deposited data

Results flagged for a closer look

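In 17 HOX genes and 7 sums and shares, each group of 5 libraries was checked for a library far from the other 4 (a gap to the nearest above 0.71 of the range). Of 48 groups checked, 4 met this, where chance gives about 1 in 20. In static 5, HOXA3 was at 14.6 CPM against 18.95 to 20.5 CPM in the other static libraries, HOXA4 was at 2.76 CPM against 5.08 to 5.48 CPM, and HOXC9 was at 2.76 CPM against 1.29 to 1.54 CPM. The share of the HOXB genes in stretch 10 was 62.8%, against 65.3% to 66.2% in the other stretch libraries.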

How the results depend on the processing

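The count of HOX genes called was 0 in each of the 18 alternatives, which were other scalings, filters, tools and a threshold of 0.1, and fits with each library left out. Over all genes, where edgeR called 0 (1804 at an unadjusted p under 0.05), DESeq2 called 275, limma-voom 1 and a threshold of 0.1 gave 61. With a library left out the count ran from 0 to 39, the latter without stretch 4; it was 2 without stretch 6 and 1 without stretch 10. For HOXB4 the log2 fold change was 0.35 to 0.49 and the adjusted p 0.101 to 0.344 over its alternatives. Of 217 fold changes of the 13 HOX genes recomputed, 21 changed sign, and none of these passed the threshold in either fit. HOXA6 became -0.014 with upper quartile scaling, -0.0035 with a filter of 50 counts in 5 libraries, -0.038 in limma-voom, and -0.146 to -0.0022 without static 1, 5, 7 or 9 or stretch 2 or 6 (-0.0022, -0.050, -0.041, -0.032, -0.146 and -0.069), with a highest value of 0.132. HOXA3 became 0.0091 without stretch 4 and 0.067 without stretch 8 (lowest -0.154). HOXB2 became 0.115, 0.065, 0.019 and 0.068 without static 1, stretch 4, static 5 and stretch 6 (lowest -0.113). HOXB5 became -0.0029 without stretch 2 and -0.038 without static 9 (highest 0.0759), and HOXB7 -0.0080 without stretch 6 (highest 0.190). HOXC6 became -0.0030, -0.047 and -0.074 without static 1, stretch 6 and static 7 (highest 0.383). With a library left out, HOXA4 ran from -0.320 to -0.116, HOXA5 from -0.151 to -0.0097 and HOXB8 from -0.308 to -0.116. For such small differences the cause was not tested. Per kb of merged exons, a scale added after seeing the data, the HOXA share was 37.7% and the HOXB share 57.8%. The order of the clusters was the same on each scale. With 0.5 and 5 CPM as the minimum in place of 1, 15 and 10 HOX genes were counted as detected. HOXA10 and HOXB3, under 3 counts in 8 and 5 of 10 libraries, are too low at this depth for a firm comparison. No paired analysis was possible because the groups share no title number.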
